A study of Mus musculus with 10 samples.

Results

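The genes Pdgfra, Cspg4, Gpr17, Olig1, Olig2, Sox10, Enpp6, Neu4, Bcas1 and Myrf were followed as genes of oligodendrocyte precursors and of their differentiation into myelin-forming cells. They were taken by symbol from a count table of 49315 genes, in which all 10 were present, and all 10 passed the low-count filter that left 17080 genes for testing. Male C57 BL/6 mice gave the tissue, the granule cell layer dissected from the dorsal part of the dentate gyrus in the hippocampus. In the cocaine group 5 mice had self-administered cocaine, and in the control group 5 mice had saline in the same self-administration setting, with 5 poly(A) libraries per group. All mice carried the same genotype label, with no transgene or other allele named. The sources used here give no age, dose, session schedule or time of collection.

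Oligodendrocyte precursors are dividing glial cells found throughout the adult brain, the dentate gyrus included, and some of them leave the cell cycle and become oligodendrocytes that wrap axons in myelin. The platelet-derived growth factor receptor Pdgfra and the proteoglycan Cspg4 (NG2) mark the precursors, and the receptor Gpr17 marks cells that have committed to differentiate. Olig1, Olig2 and Sox10 are transcription factors present through the whole lineage, and Myrf is a transcription factor that turns on myelin genes. Enpp6 and Bcas1 are high in newly forming oligodendrocytes.

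No gene of the 10 passed the test between groups. The precursor markers Pdgfra and Cspg4 had log2 fold changes, cocaine over saline, of −0.077 and 0.044, and Gpr17, the receptor of committed cells, had 0.065. The factors Olig1 and Olig2 stood at 0.22 and 0.27. Sox10, a factor of the whole lineage, stood at 0.52 and Myrf at 0.55. Enpp6 and Bcas1 stood at 0.60 and 0.48, and Neu4, a sialidase, at 0.30. The median of the 10 was 0.29, beside 0.016 over all genes tested.

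edgeR's quasi-likelihood test, with Benjamini-Hochberg adjustment over all 17080 genes and a threshold of 0.05, called 0 of the 10 genes, as it called 0% of all genes tested. DESeq2 and limma voom with sample weights also called 0 of the 10. At an unadjusted p under 0.05, edgeR had 4 of the 10 higher with cocaine (Sox10, Myrf, Enpp6 and Neu4), beside 5.58% of all genes, and 0 lower, beside 3.33%. The fitted fold change exceeded 1 for 9 of the 10 and for 53.6% of all genes. Over all genes DESeq2 called 20 higher and 1 lower, and voom 91 and 4. The count of 4 became 7 without cocaine replicate 2. It became 2 without any one of cocaine replicates 1, 4 and 5 or saline replicates 1, 4 and 5, where Sox10 and Myrf were the genes counted, and 2 as well without the 3 libraries highest in choroid plexus markers. In 0 of the 10 genes were all libraries of one group above those of the other, where 0.773% of all genes lay wholly above and 0.609% wholly below with cocaine.

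**Figure D1:**
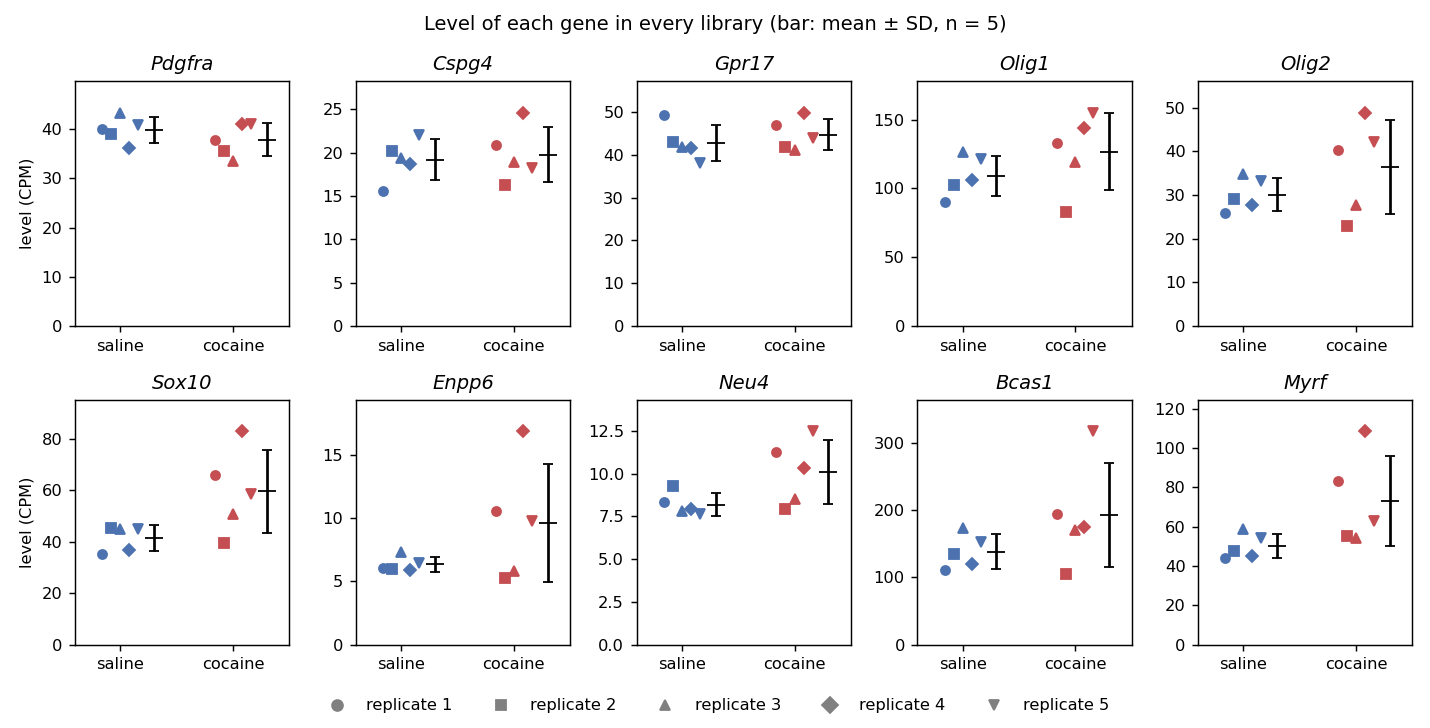
Level of each of the 10 genes in every library, in CPM (linear axis from 0), with 1 marker shape per replicate number and the mean ± SD of 5 libraries at the side of each group. Pdgfra, Cspg4 and Gpr17 lie at like levels in both groups, and for Sox10, Enpp6 and Myrf cocaine replicate 4 is the highest library.

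Pdgfra and Enpp6, which had the lowest and the highest fold change of the 10, are shown by the 250 bases before the transcript start given by RefSeq (GRCm38.p6), written 5′ to 3′ with motif matches in capitals. Such windows were at hand for 5 of the 10 genes (Pdgfra, Cspg4, Olig2, Enpp6 and Neu4).
Pdgfra, chr5:75152001-75152250, plus strand: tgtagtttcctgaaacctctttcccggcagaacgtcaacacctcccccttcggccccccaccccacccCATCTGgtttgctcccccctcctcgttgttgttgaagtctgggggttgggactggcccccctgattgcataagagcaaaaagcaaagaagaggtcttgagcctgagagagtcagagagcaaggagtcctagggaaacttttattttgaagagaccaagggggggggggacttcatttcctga
Enpp6, chr8:46986637-46986886, plus strand: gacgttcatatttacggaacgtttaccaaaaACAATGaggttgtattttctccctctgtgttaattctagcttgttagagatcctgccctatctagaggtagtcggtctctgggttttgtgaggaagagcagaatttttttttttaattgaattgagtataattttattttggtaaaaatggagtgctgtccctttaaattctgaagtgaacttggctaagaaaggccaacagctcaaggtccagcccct
The capitals mark CATCTG in Pdgfra, which fits the E-box CANNTG bound by basic helix-loop-helix factors such as Olig2, and ACAATG in Enpp6, one of the Sox motifs ACAAAG and ACAATG. Both strands were searched, no match overlapped another, and these matches lie 182 and 219 bases before the start. An E-box was in 66.2% of all 32851 windows of this length and in 2 of the 5 members' windows, and a Sox motif in 25.2% and in 2 of the 5. The Myrf motif CTGGNAC was in 16.1% of all windows and in 0 of the 5. A match says only that the letters are in the window.

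Levels are given as CPM, a gene's count per 1000000 counts of the library, with library totals adjusted by TMM factors that set the bulk of genes to the same level. Pdgfra, the receptor through which platelet-derived growth factor keeps precursors dividing, lies on chromosome 5 from 75152292 to 75198215 (mm10, GENCODE M21). Its level was 37.8, 35.6, 33.4, 40.98 and 41.1 CPM in cocaine replicates 1 to 5 and 40.1, 39.1, 43.3, 36.1 and 40.8 CPM in saline replicates 1 to 5. The cocaine libraries lay within or just below the saline range, with replicates 2 and 3 below every saline library. The means were 37.8 ± 3.35 CPM in the cocaine group and 39.9 ± 2.60 CPM in the saline group (n = 5 each, SD), with a log2 fold change of −0.077 (95% interval −0.25 to 0.10; adjusted p 0.789), so that the interval of the fold runs from 0.840 to 1.07.

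Cspg4, on chromosome 9 from 56865033 to 56899870, codes for the NG2 proteoglycan that sits on precursors and also on pericytes. Its level was 20.9, 16.3, 18.9, 24.6 and 18.3 CPM in cocaine replicates 1 to 5 and 15.6, 20.2, 19.4, 18.6 and 22.1 CPM in saline replicates 1 to 5. The highest library, cocaine replicate 4, and the lowest, saline replicate 1, belong to different groups, and the other libraries overlap. The means were 19.8 ± 3.15 CPM in the cocaine group and 19.2 ± 2.39 CPM in the saline group (n = 5 each, SD), with a log2 fold change of 0.044 (95% interval −0.22 to 0.31; adjusted p 0.936). The sign of this small difference turned without cocaine replicate 4 (−0.044) and without saline replicate 1 (−0.024).

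Gpr17, a G protein-coupled receptor that holds committed precursors back from maturing, lies on chromosome 18 from 31942997 to 31949636 within a region where 188 bases of its exons are shared with Lims2 on the other strand. Its level was 46.9, 41.8, 41.1, 49.8 and 44.04 CPM in cocaine replicates 1 to 5 and 49.4, 43.1, 41.8, 41.5 and 38.04 CPM in saline replicates 1 to 5. The groups overlapped over most of their range, with only cocaine replicate 4 above the highest saline library. The means were 44.7 ± 3.65 CPM in the cocaine group and 42.8 ± 4.13 CPM in the saline group (n = 5 each, SD), with a log2 fold change of 0.065 (95% interval −0.12 to 0.25; adjusted p 0.844). Lims2 had 280 to 613 counts per library against 1461 to 2012 for Gpr17, and whether the counting used strand was not given in the sources used here, so reads of this pair may not be separable.

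The neighbouring basic helix-loop-helix factors Olig1 and Olig2 lie on chromosome 16, Olig2 from 91225457 to 91228677 and Olig1 from 91269772 to 91271933. Olig2 specifies the lineage and Olig1 supports its later maturation. Olig1 stood at 133, 82.8, 119, 144 and 155 CPM in cocaine replicates 1 to 5 and 90.05, 103, 126, 106 and 121 CPM in saline replicates 1 to 5. Cocaine replicate 2 was the lowest of the 10 libraries and cocaine replicates 1, 4 and 5 were above every saline library. The means were 127 ± 27.96 CPM in the cocaine group and 109 ± 14.6 CPM in the saline group (n = 5 each, SD), with a log2 fold change of 0.22 (95% interval −0.11 to 0.54; adjusted p 0.677).

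Olig2 stood at 40.3, 22.98, 27.8, 48.8 and 42.3 CPM in cocaine replicates 1 to 5 and 25.8, 29.1, 34.8, 27.6 and 33.3 CPM in saline replicates 1 to 5. As with Olig1, cocaine replicate 2 was lowest and cocaine replicates 1, 4 and 5 were above all saline libraries. The means were 36.4 ± 10.7 CPM in the cocaine group and 30.1 ± 3.80 CPM in the saline group (n = 5 each, SD), with a log2 fold change of 0.27 (95% interval −0.11 to 0.66; adjusted p 0.660). Without cocaine replicate 2 the log2 fold changes of Olig1 and Olig2 were 0.34 and 0.40, with adjusted p of 0.233 and 0.273 in edgeR, and the lowest values with 1 library left out were 0.13 for Olig1, without cocaine replicate 5, and 0.15 for Olig2, without cocaine replicate 4.

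Sox10, an HMG-box factor that acts with the Olig factors and upstream of Myrf, had the smallest p of the 10 genes and lies on chromosome 15 from 79154908 to 79165240. Its level was 65.8, 39.5, 50.8, 82.8 and 58.7 CPM in cocaine replicates 1 to 5 and 35.2, 45.2, 44.8, 36.8 and 45.00 CPM in saline replicates 1 to 5. Of the 5 cocaine libraries, 4 were above every saline library, and replicate 2 lay inside the saline range. The means were 59.5 ± 16.3 CPM in the cocaine group and 41.4 ± 4.96 CPM in the saline group (n = 5 each, SD), with a log2 fold change of 0.52 (95% interval 0.17 to 0.88; adjusted p 0.504) and an unadjusted p of 0.00682 in edgeR. Over the 17 alternatives its log2 fold change ran from 0.38 to 0.64, and the smallest adjusted p was 0.100, with limma voom.

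Myrf, a membrane-bound factor whose released part turns on myelin genes, lies on chromosome 19 from 10208272 to 10240748. Its level was 83.4, 55.5, 54.4, 109 and 63.2 CPM in cocaine replicates 1 to 5 and 44.3, 47.8, 58.7, 45.2 and 54.1 CPM in saline replicates 1 to 5. Cocaine replicates 1, 4 and 5 were above every saline library, and replicates 2 and 3 lay within the upper saline range. The means were 73.00 ± 23.01 CPM in the cocaine group and 50.03 ± 6.18 CPM in the saline group (n = 5 each, SD), with a log2 fold change of 0.55 (95% interval 0.17 to 0.92; adjusted p 0.504) and an unadjusted p of 0.008 in edgeR. Without cocaine replicate 4, the library with the highest level, the log2 fold change of Myrf was 0.36, and the smallest adjusted p over the alternatives was 0.115.

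Enpp6, a choline-specific phosphodiesterase high in newly forming oligodendrocytes, was a low gene with 206 to 682 counts per library and lies on chromosome 8 from 46986887 to 47096762. Its level was 10.6, 5.27, 5.79, 16.9 and 9.77 CPM in cocaine replicates 1 to 5 and 6.07, 6.00, 7.35, 5.90 and 6.47 CPM in saline replicates 1 to 5. The saline libraries were close together, while the cocaine libraries held both the highest and the lowest levels of the 10. The means were 9.66 ± 4.67 CPM in the cocaine group and 6.36 ± 0.595 CPM in the saline group (n = 5 each, SD), with a log2 fold change of 0.60 (95% interval 0.035 to 1.17; adjusted p 0.546) and an unadjusted p of 0.0391 in edgeR. Without cocaine replicate 4 the log2 fold change was 0.31, with an unadjusted p of 0.164.

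Neu4, a sialidase that trims sialic acid from glycoproteins and glycolipids, lies on chromosome 1 from 94020451 to 94028334 and had 304 to 475 counts per library. Its level was 11.3, 7.92, 8.54, 10.3 and 12.5 CPM in cocaine replicates 1 to 5 and 8.34, 9.28, 7.83, 7.91 and 7.62 CPM in saline replicates 1 to 5. Cocaine replicates 1, 4 and 5 were above every saline library, and the other cocaine libraries lay inside the saline range. The means were 10.1 ± 1.88 CPM in the cocaine group and 8.19 ± 0.660 CPM in the saline group (n = 5 each, SD), with a log2 fold change of 0.30 (95% interval 0.015 to 0.59; adjusted p 0.547). Without cocaine replicates 1 and 5 and saline replicate 3, the libraries with the highest choroid plexus marker sums, the log2 fold change was 0.11. Cocaine replicates 1 and 5 were also the libraries highest in Neu4. A link to the choroid plexus markers thus cannot be told apart from leaving out the highest levels of the gene.

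Bcas1, a protein of newly forming and myelinating oligodendrocytes, lies on chromosome 2 from 170346991 to 170427845. Its level was 194, 105, 170.5, 176 and 318 CPM in cocaine replicates 1 to 5 and 111, 135, 174, 119 and 153 CPM in saline replicates 1 to 5. Cocaine replicate 5 was the highest library and cocaine replicate 2 the lowest. The means were 193 ± 77.6 CPM in the cocaine group and 139 ± 25.6 CPM in the saline group (n = 5 each, SD), with a log2 fold change of 0.48 (95% interval −0.015 to 0.97; adjusted p 0.572). Without cocaine replicate 5 the log2 fold change was 0.22, and without the 3 libraries with the highest choroid plexus marker sums it was 0.21. Those 3 include cocaine replicates 1 and 5, the libraries highest in Bcas1, so here too a link to the choroid plexus markers cannot be told apart.

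**Figure D2:**
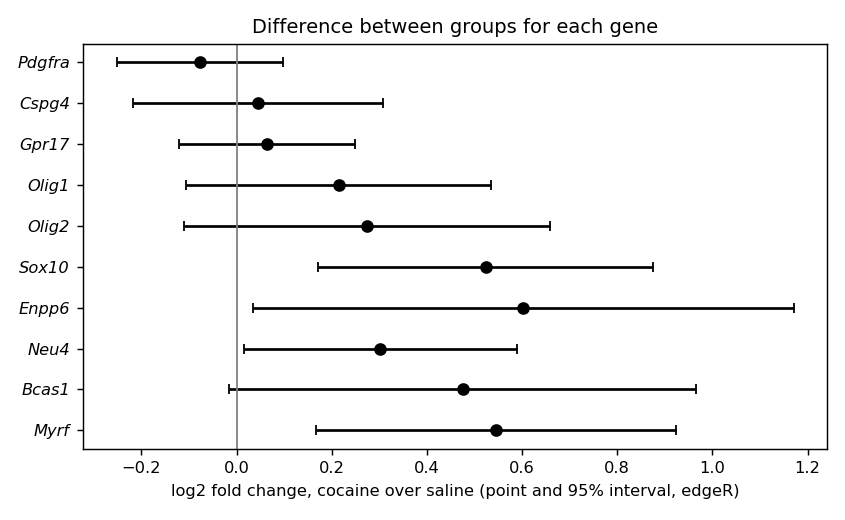
Log2 fold change, cocaine over saline, of each of the 10 genes (points) with its 95% interval from the edgeR fit (bars) and a line at no difference. The intervals of Sox10, Enpp6, Neu4 and Myrf lie above 0 before adjustment for 17080 tests, and those of the other 6 genes include 0.

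The spread between mice was wider with cocaine than with saline for 9 of the 10 genes, Gpr17 being the exception, and for 71.9% of all genes tested. The coefficient of variation of Enpp6 was 48.4% with cocaine and 9.36% with saline. For Sox10 it was 27.3% and 11.97%, and for Pdgfra 8.87% and 6.53%. The difference in spread was not tested.

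Levels were compared between genes as CPM per kilobase of annotated exon, averaged over the 10 libraries. Olig1 (54.6) and Bcas1 (43.9) were the highest, and their ranges over libraries, 38.3 to 71.6 and 27.9 to 84.2, overlapped. Sox10 (16.5), Olig2 (13.2), Gpr17 (8.42) and Myrf (7.18) followed, each overlapping its neighbour in that order. Pdgfra (3.87, range 3.34 to 4.32) stood apart from both neighbours. Neu4 (1.97), Cspg4 (1.63) and Enpp6 (1.25) were the lowest and overlapped. These values use the union of all annotated exons, so a gene with long exons that are rarely used comes out too low. Exons of Pdgfra, Bcas1 and Olig1 also overlap genes on the other strand. The longest overlaps were 456 bases with Gm42802, 440 with Bcas1os1 and 157 with Gm15966, genes with at most 7 counts per library. The strand setting was not given, and whether reads were lost there was not tested.

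The 10 genes did not move as 1 block across the libraries. Sox10, Myrf, Enpp6 and Olig2 were alike, with Pearson r of log2 CPM over the 10 libraries of 0.94 for Sox10 with Myrf, 0.92 for Enpp6 with Myrf and 0.93 for Olig2 with Enpp6. Bcas1 was most like Olig1, at 0.91, and less like Myrf, at 0.50. Pdgfra and Cspg4, both precursor markers, had an r of 0.29, and Gpr17 with Cspg4 had 0.017. Cspg4 was more like Olig2 (0.74), Sox10 (0.73), Myrf (0.68), Olig1 (0.67) and Enpp6 (0.66). With Bcas1 and Neu4 it had 0.37 and 0.26. After the group means were subtracted, Pdgfra had an r of 0.79 with Olig2 and 0.76 with Enpp6, beside 0.56 and 0.45 over all libraries. Cspg4 then had 0.89 with Sox10 and 0.81 with Myrf, and 0.36 with Bcas1 and 0.25 with Neu4. These values describe 10 libraries that share their dissection and scaling, and no test was made of them.

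**Figure D3:**
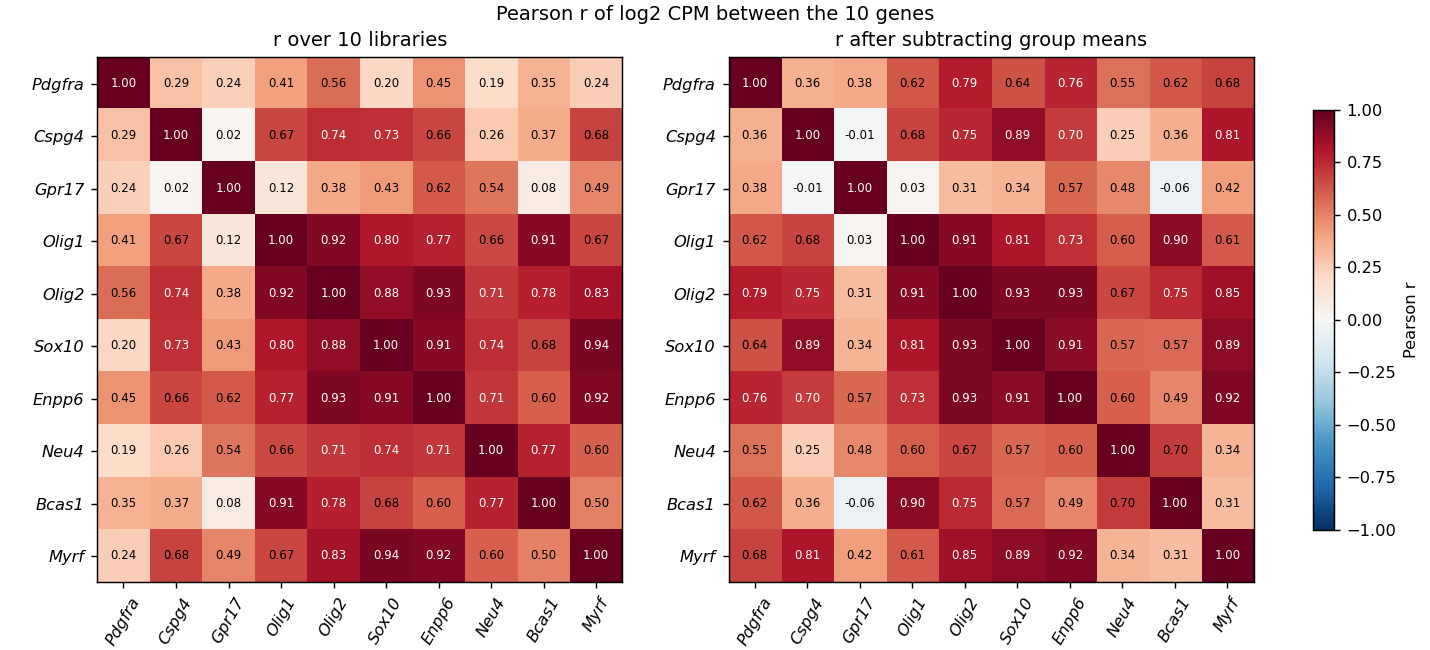
Pearson r of log2 CPM between each pair of the 10 genes, over the 10 libraries on the left and after subtracting each group's mean on the right, on a colour scale from −1 to 1. The highest values are among Sox10, Enpp6, Olig2 and Myrf and between Olig1 and both Olig2 (0.92) and Bcas1 (0.91), while Gpr17 has low values with Cspg4, Olig1 and Bcas1.

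Over all genes tested, those most alike across the 10 libraries differed among the members. Sox10 was most like Tmem63a (0.98, and 0.96 after subtraction) and Ttyh2 (0.97 and 0.96), where subtraction means that group means were taken away first. Myrf was most like Pacs2 (0.98, and 0.97 after subtraction) and Plxnb3 (0.98 and 0.97), and Enpp6 like Trim59 (0.96, and 0.98 after subtraction) and Tspan2 (0.96 and 0.95). Bcas1 was most like Mbp (0.98, and 0.98 after subtraction) and Plekhb1 (0.98 and 0.99), and Mbp codes for myelin basic protein.

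Olig2 was most like Card19 (0.99, and 0.99 after subtraction) and Efhd1 (0.99 and 0.99), and Olig1 like Gjb1 (0.96, and 0.96 after subtraction) and Cdc42ep1 (0.95 and 0.95), where Gjb1 codes for a gap junction protein of oligodendrocytes. Neu4 was most like Tmem252 (0.98, and 0.97 after subtraction) and Tyro3 (0.92 and 0.88). Pdgfra was most like Pros1 (0.96, and 0.96 after subtraction) and BC052040 (0.94 and 0.93), and Gpr17 like Tbccd1 (0.93, and 0.92 after subtraction) and Rdh10 (0.87 and 0.88). Cspg4 was most like Rhou (0.93, and 0.93 after subtraction) and Pdgfrb (0.93 and 0.93), and Pdgfrb is a receptor that marks pericytes.

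Genes of mature oligodendrocytes, the cells into which precursors develop, had a median log2 fold change of 0.65, beside 0.29 for the 10 genes. The fold change exceeded 1 for all 23 of them. Before adjustment 21 were higher with cocaine at p under 0.05 and 0 were lower, beside 5.58% and 3.33% of all genes tested. After adjustment over all genes 0 passed in edgeR, DESeq2 or voom. The count of 21 fell to 11 without cocaine replicate 5, 13 without saline replicate 4 and 12 without the 3 libraries highest in choroid plexus markers. Mag, a myelin adhesion protein, stood at 232 ± 72.9 CPM in the cocaine group and 139 ± 23.1 CPM in the saline group (n = 5 each, SD), which is a log2 fold change of 0.74. Cnp, a myelin enzyme, stood at 0.65 and Mbp at 0.55. That the medians of the lists differ was not tested.

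The other precursor genes lay on both sides of 0, 7 of 18 with a fold change over 1, and their median log2 fold change was −0.037. Before adjustment 2 of them (Ptprz1 and Sema5a) were lower at p under 0.05 and 0 were higher, beside 3.33% and 5.58% of all genes. After adjustment 0 passed. The count of 2 was 0 without cocaine replicate 3 and 1 without any one of cocaine replicate 1 and saline replicates 1, 4 and 5. Ptprz1, a receptor phosphatase of precursors and astrocytes, stood at 196 ± 8.50 CPM in the cocaine group and 219 ± 5.50 CPM in the saline group (n = 5 each, SD), which is a log2 fold change of −0.16. All 5 of its cocaine libraries were below every saline library, as in 0.609% of all genes tested. Sema5a, a guidance protein, had −0.39 and Tnr, the matrix protein tenascin-R, −0.24. Several of these genes are also made by neurons or astrocytes.

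Of 16 other genes of newly formed oligodendrocytes, 10 were above a fold change of 1, the median log2 fold change was 0.084, and 0 were past an unadjusted p of 0.05 in either direction. The sorting nexin Snx22 stood at 0.27, the small GTPase Rap2a at −0.16 and the kinase Fyn at −0.066. The last pair are also neuronal genes, and the sign of this list's median was not stable. It was −0.043 without cocaine replicate 1, −0.011 without cocaine replicate 5, −0.013 without saline replicate 1, −0.012 in voom and −0.070 without the 3 libraries with the highest choroid plexus marker sums.

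Among 27 genes of signals that act on precursors, 6 were higher with cocaine and 1 (Erbb4) was lower before adjustment. Over all genes 5.58% were higher and 3.33% lower. After adjustment 0 of the 27 passed, and their median log2 fold change was −0.0024. The count of 6 was 1 without any one of cocaine replicate 1 and saline replicates 1 and 4. It was 2 without cocaine replicate 4 or saline replicate 5, 2 with the replicate number as a block and 3 without the 3 libraries highest in choroid plexus markers. Pdgfa, the ligand of Pdgfra, stood at 56.3, 48.7, 57.3, 55.9 and 65.5 CPM in cocaine replicates 1 to 5 and 43.4, 52.3, 47.3, 47.8 and 47.6 CPM in saline replicates 1 to 5. Of the cocaine libraries, 4 were above every saline library. Its log2 fold change was 0.25 with an adjusted p of 0.504 in edgeR, while its receptor stood at −0.077. The neuregulin receptor Erbb4 had −0.27, Lingo1, an inhibitor of differentiation, −0.087, and the fibroblast growth factor receptor Fgfr1 −0.060. Erbb4 is also on the list of GABAergic interneuron markers, so its level is not that of precursors alone. Of the 6 higher genes only Pdgfa is named here. The highest log2 fold change of the list was 0.55, in a gene not named here. Which cells made the 6 higher genes was not tested, so their count is not a count for precursors alone.

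Among 30 other transcription regulators tested, 3 had a higher level with cocaine at p under 0.05 before adjustment and 0 had a lower one. The shares of all genes were 5.58% and 3.33%. After adjustment 0 regulators passed, and their median log2 fold change was −0.0096. The count of lower ones was 3 without cocaine replicate 2, 2 without cocaine replicate 5 and 1 without saline replicate 2 or 3. Nkx6-2, a homeobox factor of mature oligodendrocytes, had 0.70. Sox8, the close relative of Sox10, stood at 44.3, 38.8, 42.5, 52.2 and 49.6 CPM in cocaine replicates 1 to 5 and 36.99, 38.5, 40.3, 36.3 and 35.4 CPM in saline replicates 1 to 5. As with Sox10, 4 cocaine libraries were above every saline library, and its log2 fold change was 0.28 with an adjusted p of 0.504 in edgeR. Tcf4 and Klf9, abundant factors that neurons also make, stood at −0.16 and −0.15.

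Cell division genes, which dividing precursors and neural progenitors both use, had a median log2 fold change of 0.0097, with 9 of 17 above a fold change of 1. Before adjustment 0 were higher and 1 (Mki67) was lower at p under 0.05, beside 5.58% and 3.33% of all genes, and 0 passed after it. Mki67, which codes for the Ki-67 protein of dividing cells, stood at 1.77, 1.94, 1.83, 2.18 and 1.84 CPM in cocaine replicates 1 to 5 and 3.27, 2.38, 2.49, 2.35 and 2.89 CPM in saline replicates 1 to 5. Mki67 was thus a low gene. All 5 cocaine libraries were below every saline library, as in 0.609% of all genes tested. Its log2 fold change was −0.49, with an adjusted p of 0.505 in edgeR. The other genes named by the rule were Cdk1, the mitotic kinase, at 0.72, Mcm6, a replication helicase subunit, at −0.039 and Pcna, the sliding clamp, at 0.14.

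**Figure D4:**
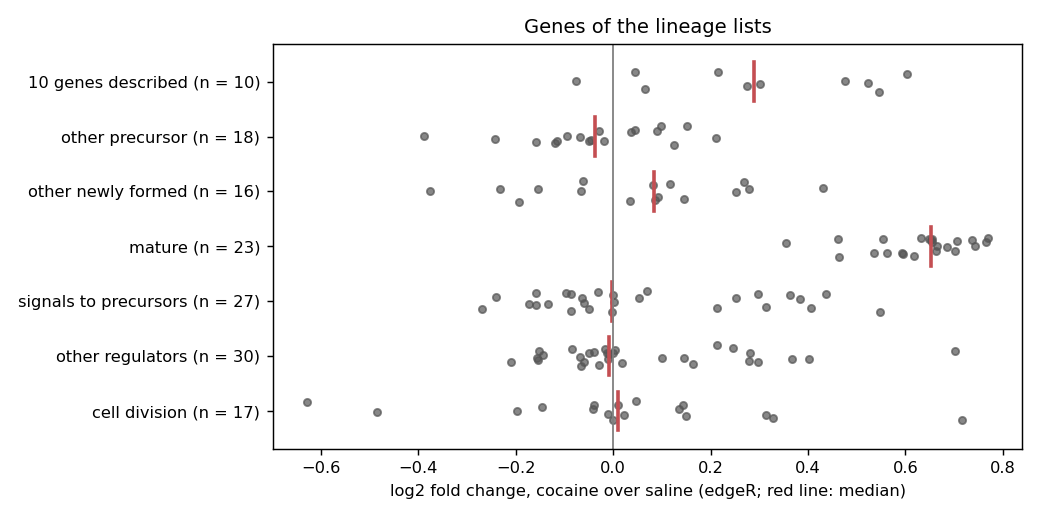
Log2 fold change, cocaine over saline, of every tested gene (points) in each list, with the median in red. The mature list lies wholly above 0 with a median of 0.65, and the other precursor genes lie on both sides of 0 around a median of −0.037.

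Library by library, the summed level of the 23 mature genes ranged widely. It was 8100.2, 4575, 6190.2, 9475 and 11893 CPM in cocaine replicates 1 to 5 and 4478, 5279, 6475, 4537 and 5616 CPM in saline replicates 1 to 5. Cocaine replicates 1, 4 and 5 were above every saline library and cocaine replicate 2 was near the lowest. Over the 10 libraries Bcas1 followed this sum with a Pearson r of 0.93 and a Spearman rho of 0.95, and Olig1 with 0.91 and 0.93. For Sox10 they were 0.86 and 0.88, for Myrf 0.75 and 0.89. They were 0.38 and 0.49 for Pdgfra, and 0.32 and 0.25 for Gpr17. Without cocaine replicates 4 and 5, the 2 libraries farthest from the median of the sum, r was 0.96 for Bcas1, 0.94 for Sox10, 0.88 for Myrf, 0.87 for Olig2, 0.87 for Olig1, 0.12 for Pdgfra and 0.040 for Gpr17. The libraries share their scaling, and these values are a description with no test. After subtraction of the group means, r was 0.94 for Olig1, 0.93 for Bcas1, 0.92 for Olig2, 0.80 for Pdgfra and 0.78 for Sox10. It was 0.77 for Neu4, 0.77 for Enpp6, 0.59 for Myrf, 0.53 for Cspg4 and 0.20 for Gpr17. The order of the genes thus depended on the measure, and Pdgfra moved most between them. In dissected tissue, a different number of cells and a different amount of RNA per cell cannot be told apart.

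**Figure D5:**
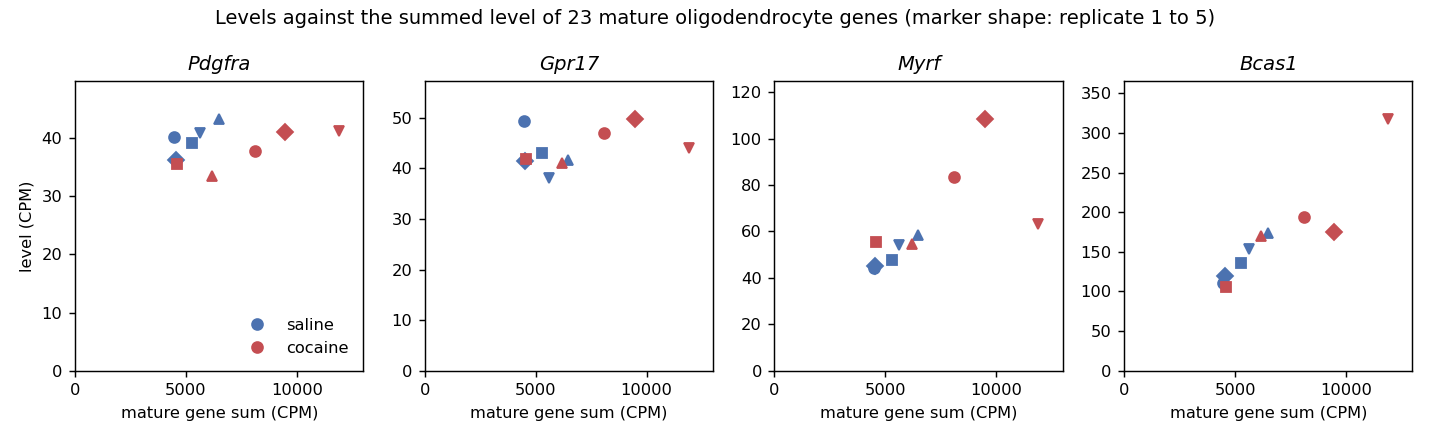
Level of Pdgfra, Gpr17, Myrf and Bcas1 in each library (CPM) against the summed CPM of the mature oligodendrocyte genes, with colour for the group and marker shape for the replicate. Bcas1 climbs with the sum (r 0.93). Pdgfra (r 0.38, and 0.80 after subtraction of the group means) and Gpr17 (r 0.32 and 0.20) lie between 33.4 and 49.8 CPM over the whole range.

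Markers of granule cells and of other cell types in or beside the layer were detected, and of 118 listed none was at 0 in all libraries. Choroid plexus markers (12 of 12 present) summed to 66.4 to 3655 CPM with cocaine and 102 to 1421 CPM with saline, with cocaine replicate 5 highest and cocaine replicate 4, the library highest in Sox10, Myrf and Enpp6, lowest. Pericyte and smooth muscle markers, cells that also express Cspg4, summed to 160.2 to 276 CPM with cocaine and 194 to 231 CPM with saline. Markers of fibroblasts, which also express Pdgfra, summed to 77.8 to 143 CPM with cocaine and 89.6 to 120.0 CPM with saline. Over the 10 libraries the r with this sum was 0.84 for Pdgfra, 0.77 for Olig2 and 0.74 for Enpp6, and with the pericyte sum it was 0.80 for Bcas1 and 0.37 for Cspg4. After subtraction of the group means, r with the fibroblast sum was 0.89 for Pdgfra, 0.84 for Olig2 and 0.87 for Enpp6. With the pericyte sum it was then 0.95 for Bcas1 and 0.38 for Cspg4. Bcas1 also had 0.88 with the endothelium sum and 0.86 with the microglia sum. A close r was thus not particular to the mature oligodendrocyte sum. Granule cell markers, Prox1 and C1ql2 among them, were present as the tissue label implies and summed to 1082 to 1886 CPM with cocaine and 1395 to 1864 CPM with saline, and Bcas1 had an r of −0.89 with them. Astrocyte markers ran from 3846 to 4860.1 CPM with cocaine and 4097 to 4834 CPM with saline, and microglia markers from 292 to 497 CPM with cocaine and 341 to 380.0 CPM with saline. The part of these cells in the differences above was not tested. Total counts per library ran from 34991548 to 46481533.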

How the data were processed

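The authors deposited raw counts per Ensembl gene, 1 column per library, without normalization. The submitters' processing notes name cutadapt, STAR, Cufflinks, HTSeq and mm10, and per the labels' protocols the kit was directional with poly(A) selection. Which annotation release, strand setting and filters were used was not given in the sources used here. Symbols, coordinates and exon lengths came from GENCODE M21 (mm10), which matched 49040 of 49315 genes.

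Genes were filtered with filterByExpr, scaled with TMM factors (0.963 to 1.03) and tested with edgeR 4.0.16 (R 4.3.3), quasi-likelihood F test, two-sided, Benjamini-Hochberg over 17080 genes. Intervals are the log2 fold change ± the t quantile times its SE, the SE being the size of the log2 fold change over the root of F. The 17 alternatives were RLE and upper-quartile factors, no filter, DESeq2 1.42.0, limma 3.58.1 voom with sample weights, the replicate block, each library left out in turn, and 3 libraries left out together. The members, lists and tests were chosen with earlier results of these data known. Named beside the members were, per list, the 2 genes with the smallest p and the 2 with the highest CPM, and for each member the 2 genes most alike in log2 CPM (prior count 2), leaving out symbols such as those starting with Gm. One gene that the rule selects is not reported here. Septin4 and Nov were matched as Sept4 and Ccn3. Counts were also simulated for 17080 genes, each drawn independently of the others. Of these, 33 of 67 genes changed 1.5-fold, 46 of 67 changed 2-fold and 54 of 66 changed 3-fold were called, and 6 of 139 calls were false.

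Marker lists covered choroid plexus, fibroblasts and meninges, astrocytes, pericytes and smooth muscle, endothelium (188 to 296 CPM with cocaine and 212 to 266 CPM with saline), microglia, granule cells, CA pyramidal cells (746 to 913 CPM with cocaine and 820.4 to 1084 CPM with saline), mossy cells (124 to 228 CPM with cocaine and 147 to 260.2 CPM with saline), GABAergic interneurons (801 to 930.0 CPM with cocaine and 881 to 974 CPM with saline) and neural stem cells with immature neurons (289 to 355 CPM with cocaine and 266 to 388 CPM with saline).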

Additional observations from a re-analysis of the deposited data

Results flagged for a closer look

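In none of the 20 sets of 5 libraries of the 10 genes did 1 library stand apart from the others by Dixon's criterion (a gap to its nearest neighbour above 0.71 of the whole range). The summed markers of 3 other cell types had such a library, among 100 sets checked, where chance gives about 1 in 20. The astrocyte sum was 4860.1 CPM in cocaine replicate 5, above the other cocaine libraries. The sum of CA pyramidal cell markers was 746 CPM in cocaine replicate 4, below the other cocaine libraries. The mossy cell sum was 260.2 CPM in saline replicate 2, above the other saline libraries.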

How the results depend on the processing

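In edgeR with all libraries, 0 genes were called higher and 0 lower over all genes. DESeq2 called 20 higher and 1 lower, limma voom with sample weights called 91 and 4, and leaving out 1 library gave 0 to 126 higher and 0 to 3 lower, the upper ends without cocaine replicate 5. None of the 10 genes was among these calls under any of the 17 alternatives. Before adjustment 953 genes had p under 0.05 with a higher level and 568 with a lower one. These counts were 1437 and 858 without the low-count filter, 1767 and 1136 in voom, and 630 to 1532 and 276 to 1134 when 1 library was left out. Of the 10 genes, 4 were higher at that p, 2 with the replicate number as a block, 2 without the 3 libraries highest in choroid plexus marker sum, and 2 to 7 when 1 library was left out, the upper end without cocaine replicate 2. Sox10 and Myrf were at p under 0.05 in all 17 alternatives, Enpp6 and Neu4 in 8 each. The replicate block changed no call. Libraries with the same number share only that number: their deviations from the group means had correlations from −0.22 to 0.03, and 0 of the 5 cocaine libraries were closest to the saline library of their own number. The median log2 fold change of the 10 genes was 0.29 and ran from 0.17 to 0.39. Of the 10 genes only Cspg4 changed sign, to −0.044 without cocaine replicate 4 and −0.024 without saline replicate 1, over a range of −0.044 to 0.11 when 1 library was left out. The fitted folds of Sox10, Myrf and Enpp6 were 1.44, 1.46 and 1.52. On simulated counts, where edgeR made 139 calls, it called 33 of 67 genes changed 1.5-fold. How often edgeR calls genes with the levels and spread of Sox10, Myrf and Enpp6 was not tested.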

Other observations

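Ratios between genes within a library, which do not depend on the scaling between libraries, were looked at after the values were seen, and no test was made of them. The ratio of Bcas1 to Mbp counts, a gene of newly forming oligodendrocytes over the main myelin gene, varied little between libraries. It was 0.0803, 0.0767, 0.0777, 0.0693 and 0.0746 in cocaine replicates 1 to 5 and 0.0752, 0.0745, 0.0846, 0.0799 and 0.0826 in saline replicates 1 to 5, although Bcas1 itself differed about 3-fold between the lowest and the highest library. The ratio of Myrf to Sox10, the factor over its upstream partner, had means of 1.23 ± 0.148 in the cocaine group and 1.21 ± 0.0946 in the saline group (n = 5 each, SD).

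The ratio of Myrf to Pdgfra, a factor of differentiation over the precursor receptor, was 2.20, 1.56, 1.63, 2.65 and 1.54 in cocaine replicates 1 to 5 and 1.10, 1.22, 1.36, 1.25 and 1.33 in saline replicates 1 to 5. This was the only one of 10 ratios looked at in which the groups did not overlap. The other 9, Sox10, Bcas1, Enpp6, Olig2, Gpr17 and Cspg4 over Pdgfra among them, overlapped. How often ratios between other pairs of genes fail to overlap was not counted, so the Myrf to Pdgfra ratio has no background share beside it. Pdgfra was also the only member with a fold change below 1. For Sox10 over Pdgfra the means were 1.56 ± 0.341 in the cocaine group and 1.04 ± 0.105 in the saline group (n = 5 each, SD), and cocaine replicate 2 lay inside the saline range.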
